A study of Mus musculus with 8 samples.

Results

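The type 2 vomeronasal receptor genes (Vmn2r) were examined as a measure of what the table of serum vesicle RNA lists for genes that serum has no known reason to carry. The family was taken as every mouse protein-coding row whose GENCODE M21 symbol starts with Vmn2r, which gave 122 of the 52016 rows. Membership rests on the symbol alone. The study collected vesicle RNA from the serum of NCr nu/nu mice, a nude strain that lacks a thymus, and quantified it against mouse and dog transcripts together. The OSCA-40 group and the OSCA-32 group had been injected in the tibia with 100000 cells of a canine osteosarcoma line in 10 µl, the PBS group with 10 µl of buffer, and these 3 groups were bled at necropsy, in week 8. The week 0 group is serum pooled from all the mice before any injection. Each group had 2 libraries from pooled serum, and nothing in the labels says that the 2 came from separate pools, so p-values rest on library-to-library spread that could be technical. Each line is a single cell line in an immunodeficient host, and the vesicles were enriched by precipitation.

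Type 2 vomeronasal receptors are class C G protein-coupled receptors with a long extracellular ligand-binding domain, carried by sensory neurons of the basal layer of the vomeronasal organ. They bind peptides and proteins such as exocrine gland-secreting peptides, major urinary proteins and MHC peptides, and they signal through the G protein subunit Gnao1 and the cation channel Trpc2. A neuron usually combines a variable receptor with a broadly shared receptor of the Vmn2r1 to Vmn2r7 subfamily, and some neurons also carry H2-M10 molecules with B2m. The family lies in tandem clusters of recently duplicated genes, many of them nearly identical in sequence.

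The values are whole numbers that sum to between 977106 and 989183 per library. The number of reads behind a unit is not known, and no counting interval can be given. Mouse rows held 31.6% and 29.3% of the total in the OSCA-40 libraries, 55.3% and 56.7% in the OSCA-32 libraries, 85.3% and 84.8% in the PBS libraries and 83.9% and 82.6% in the week 0 libraries. Dog rows held the rest. Because the totals are nearly equal, a larger dog part leaves less room for mouse rows, so levels as deposited and levels relative to the other mouse rows are given separately. In bulk serum RNA, fewer vesicles with a transcript and less of it per vesicle cannot be told apart.

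Most of the family was listed, at very low values. Of the 122 genes, 120 had a value of at least 1 in some library, 49 had one in all 8 libraries, and 111 never exceeded 5. The median of the means over 8 libraries was 1.5. Vmn2r46 and Vmn2r47 were listed at 0 everywhere, and each has a near-identical stretch in another row, of 2550 bases at 99.4% identity in Gm3972 for Vmn2r46 and of 2559 bases at 100% in Gm10302 for Vmn2r47. At least 1 unit was listed for 78 and 81 members in the OSCA-40 libraries, 100 and 109 in the OSCA-32 libraries, 117 and 115 in the PBS libraries, and 113 and 115 in the week 0 libraries. The 2 OSCA-40 libraries were the lowest, and neither tumour group overlapped the PBS group. Both points also held for all protein-coding rows. Of these, 82.82% and 82.55% were at 1 or more in the OSCA-40, 92.24% and 93.05% in the OSCA-32 and 95.65% and 95.23% in the PBS libraries. The member shares were 63.93% and 66.39%, 81.97% and 89.34%, and 95.9% and 94.26% in the same order. In OSCA-40 serum 21 members were at 0 in both libraries, against 5 in OSCA-32, 4 in PBS and 4 in week 0 serum. These are 17.2%, 4.10%, 3.28% and 3.28% of the family, beside 8.76%, 3.70%, 2.64% and 2.86% of all protein-coding rows and 12.5%, 4.22%, 1.56% and 2.02% of Olfr genes in the same order of groups. No member was at 0 in all 4 tumour-free libraries and listed in a tumour library. Only Vmn2r46 and Vmn2r47 were at 0 in all 4 tumour-free libraries, so no other member could have shown this.

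**Figure D1:**
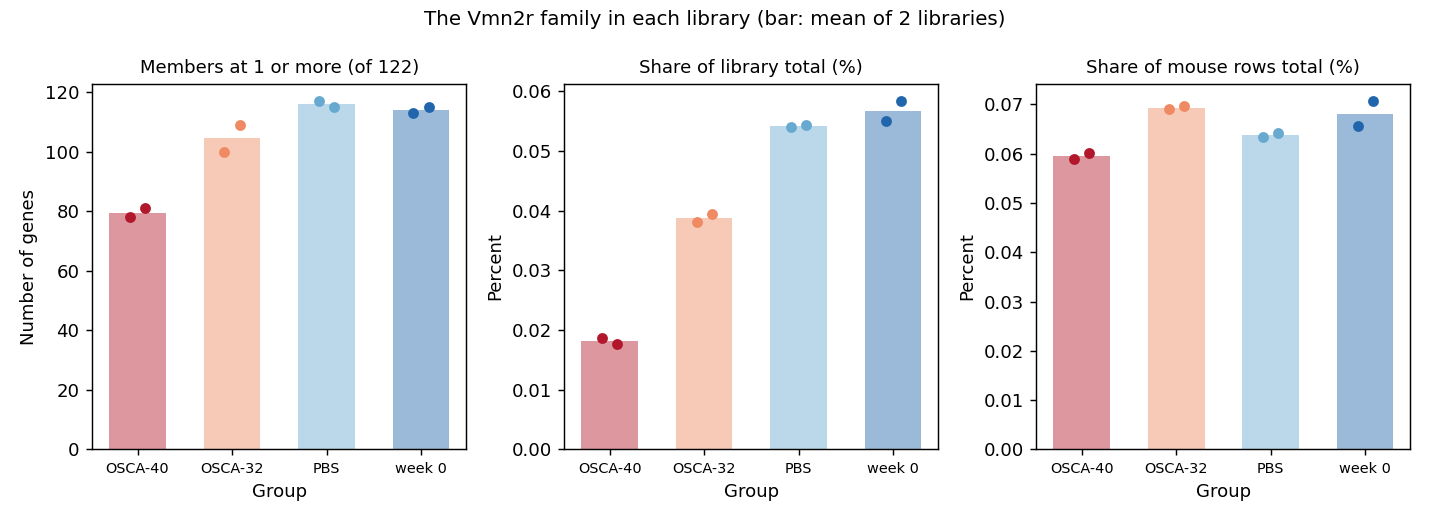
Number of Vmn2r genes with a value of at least 1 (left, of 122), their summed value as a percentage of the library total (middle) and as a percentage of the mouse rows' total (right), by group. Points are the 2 libraries of a group and bars their mean; the share of the library was 0.0181% in OSCA-40 and 0.0542% in PBS serum, whereas the share of the mouse rows lay between 0.0590% and 0.0707% in the 8 libraries.

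The summed value of the family was 184 and 174 in the OSCA-40 libraries, 375 and 388 in the OSCA-32 libraries, 528 and 531 in the PBS libraries and 538 and 571 in the week 0 libraries. As a share of the library total it averaged 0.0181% ± 0.00072 in OSCA-40, 0.0388% ± 0.000948 in OSCA-32, 0.0542% ± 0.000233 in PBS and 0.0567% ± 0.00241 in week 0 serum (SD, n = 2 each). Both tumour groups, in which mouse rows held less of the library, thus had a smaller share than both tumour-free groups. As a share of the mouse rows alone the family held 0.0590% and 0.0601% in the OSCA-40 libraries, 0.0690% and 0.0696% in the OSCA-32 libraries, 0.0633% and 0.0641% in the PBS libraries, and 0.0655% and 0.0707% in the week 0 libraries. On that denominator the OSCA-40 libraries were the lowest of the 8, the OSCA-32 libraries lay above the PBS libraries, and the OSCA-32 range lay inside the week 0 range. This order rested in part on Vmn2r55, the highest member. Without it the share of the mouse rows was 0.0410% and 0.0401% in the OSCA-40 libraries, 0.0449% and 0.0475% in the OSCA-32 libraries, 0.0437% and 0.0455% in the PBS libraries, and 0.0409% and 0.0460% in the week 0 libraries, so that OSCA-40 overlapped week 0 and OSCA-32 overlapped PBS serum. Both OSCA-40 libraries stayed below both PBS and both OSCA-32 libraries.

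The typical member stood at or below the typical protein-coding gene and below the ribosomal protein genes that every cell uses. The median Vmn2r value was 1 in each OSCA-40 and OSCA-32 library and 2 in each PBS and week 0 library. Over all 21474 mouse protein-coding rows it was 2 and 1 in the OSCA-40 libraries, 3 in both OSCA-32 libraries, and 5 in each PBS and week 0 library. Ribosomal protein genes (Rpl and Rps, 76 rows) had medians of 3 in both OSCA-40 libraries, 6 and 5.5 in the OSCA-32 libraries, 9 or more in both PBS libraries and 10 in both week 0 libraries. Other receptor families that serum is not known to carry were similarly low. Olfactory receptor genes (Olfr, 1091 rows) had medians of 1 in OSCA-40, 2 in OSCA-32, 3 in PBS and 3 in week 0 libraries. The filter for testing asked for 10 or more in 2 or more libraries, and 6 of 122 Vmn2r genes passed it (4.92%), against 22 of 1091 Olfr genes (2.02%), 6 of 172 Vmn1r genes (3.49%), 0 of 35 bitter receptor genes (Tas2r), 48 of 76 ribosomal protein genes (63.2%) and 6501 of 21474 protein-coding rows (30.3%).

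The 95th percentile of the family, the value that only the highest few members exceed, was 2 and 2.9 in the OSCA-40 libraries, 4.95 and 5 in the OSCA-32 libraries, 5.95 and 8.9 in the PBS libraries and 5 and 6 in the week 0 libraries. Between 31.6% and 45.7% of mouse protein-coding genes exceeded it in the same library. The corresponding share was 50% to 76.3% of ribosomal protein genes and 2.93% to 11.9% of Olfr genes. A single-gene value under about 5 in a tumour-free library was therefore no higher than values listed for several vomeronasal receptors there. Of 8 platelet genes, between 3 and 7 exceeded the percentile in each library. Among them Tmsb4x, an actin-binding peptide abundant in platelets, had 95 and 88 in OSCA-40, 85 and 65 in OSCA-32, 43 and 42 in PBS and 36 and 36 in week 0 libraries. The platelet receptor subunit Gp5 was at 0 to 3 in the 8 libraries, within the range of the receptors. The list did not move together. As deposited, both OSCA-40 libraries lay above both PBS libraries for Tmsb4x and Pf4 and below them for Itga2b, Gp9, Gp1bb and Gp5. For Ppbp and Treml1 they overlapped. Of all protein-coding genes 0.42% lay above and 81.3% below in this way. Of 8 liver-secreted genes between 3 and 8 exceeded the percentile. Of 8 red cell genes 6 or 7 did, and the globin gene Hba-a2 exceeded the highest receptor in each library. So did 4 or 5 of 8 vomeronasal neuron markers and 2 to 4 of 8 olfactory neuron markers exceed the percentile in each library. The number passing thus did not set the platelet list apart from the vomeronasal list in every library. The vomeronasal markers that passed were Gnai2, Gnao1, Stmn2, Ncam1 and Gng8, whereas Omp, Trpc2 and Gap43 passed in none.

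The highest members all lie on chromosome 7. Vmn2r55 (GRCm38 chr7:12651706-12685003, minus strand) led in every library, with 56 and 58 in OSCA-40, 131 and 123 in OSCA-32, 164 and 154 in PBS and 202 and 199 in week 0 libraries. The groups did not overlap, and this 1 gene made up 29.0% to 37.5% of the family sum. Vmn2r42 (chr7:8182372-8200320, minus strand) had 23 and 16 in OSCA-40, 38 and 32 in OSCA-32, 54 and 49 in PBS and 53 and 64 in week 0 libraries. Vmn2r69 (chr7:85393826-85415920, minus strand) had 19 and 12, 28 and 27, 34 and 36, and 34 and 34 in the same order of groups. For both, the OSCA-40, OSCA-32 and tumour-free libraries did not overlap, while PBS and week 0 libraries did. These 3 genes together held 45.01% to 53.7% of the family sum.

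Vmn2r41 had 5 and 4 in OSCA-40, 11 and 10 in OSCA-32, 11 and 13 in PBS and 13 and 11 in week 0 libraries, and Vmn2r30 had 4 and 4, 6 and 10, 14 and 11, and 12 and 10. Both stood close to the filter of 10 outside OSCA-40 serum. The next members, Vmn2r71, Vmn2r45, Vmn2r43, Vmn2r38 and Vmn2r28, had means over the 8 libraries of 5.12, 4.62, 4.38, 4 and 3.5. All 10 of the highest members lie on chromosome 7, which carries 51 of the 122 genes, yet the median of the means on chromosome 7 was 1.38, against 1.38 for the 32 members on chromosome 17 and 1.75 for the 11 on chromosome 5. The highest member outside chromosome 7 was Vmn2r120 on chromosome 17, with 1 and 1 in OSCA-40, 4 and 4 in OSCA-32, 3 and 3 in PBS and 4 and 6 in week 0 libraries.

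**Figure D2:**
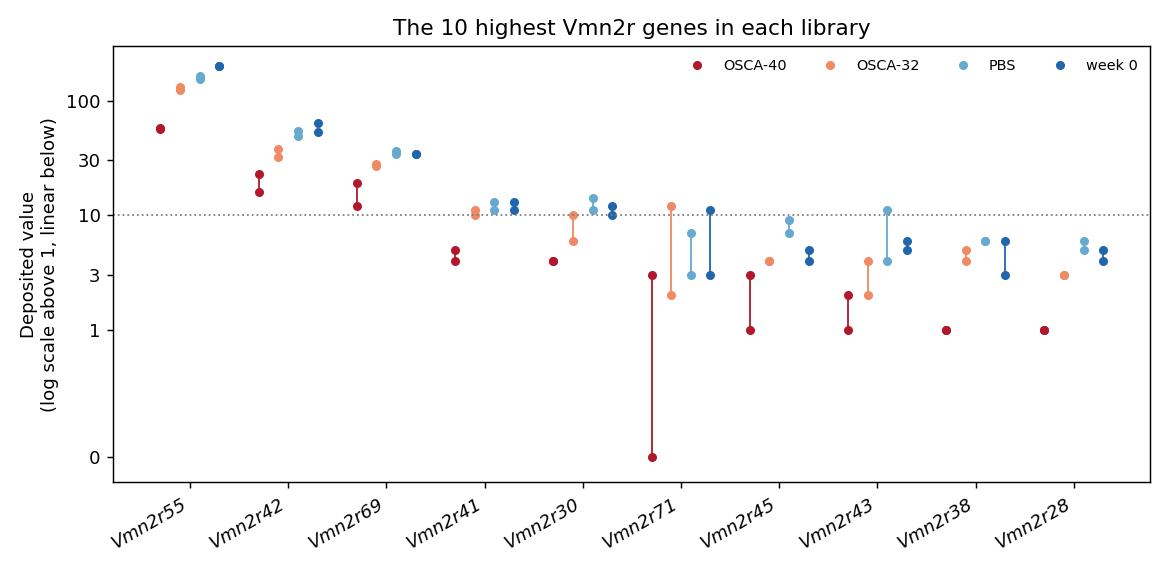
Deposited value of the 10 Vmn2r genes with the highest mean, in order of that mean, in the 2 libraries of each group (points, joined by a line); the vertical axis is logarithmic above 1 and linear below. The dotted line marks the value of 10 used by the filter; Vmn2r55 reached 202, and Vmn2r71 differed most between the 2 libraries of a group.

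The receptors with the best known ligands or roles were not among the high ones. Members of the shared subfamily, Vmn2r1 to Vmn2r7 on chromosome 3, had means between 1.12 (Vmn2r3) and 2.38 (Vmn2r7). Vmn2r116, the receptor of the male tear peptide Esp1, had 1 and 1 in OSCA-40, 1 and 2 in OSCA-32, 3 and 5 in PBS and 2 and 3 in week 0 libraries. Vmn2r26, a receptor for MHC-binding peptides, had 0 and 0, 1 and 0, 2 and 1, and 1 and 1, and Vmn2r88, which responds to haemoglobin, had 1 and 0, 2 and 1, 2 and 3, and 1 and 4. In all 3 genes the PBS and week 0 libraries overlapped.

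Sequence is shown for Vmn2r55 because its value, unlike that of its neighbours, stood apart from the family. Its transcripts in GENCODE M21 are 4, of which 3 contain a coding exon of 78 bases, exon 4 (chr7:12665463-12665540, minus strand). The same stretch, with a few changed bases, occurs in the sense direction in Gm17132, an unprocessed pseudogene on chromosome 5 (gene chr5:127877333-127878490, plus strand) that is one of the high rows of the table. Capitals mark the 5 bases of the pseudogene that differ from the exon, and both stretches read 5′ to 3′.
Vmn2r55 exon: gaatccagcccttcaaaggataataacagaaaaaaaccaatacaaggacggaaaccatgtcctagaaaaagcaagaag
Gm17132: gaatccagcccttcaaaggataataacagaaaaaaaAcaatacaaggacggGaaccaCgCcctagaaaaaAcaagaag
Gm17132 had 4972 and 4631 in OSCA-40, 9108 and 8736 in OSCA-32, 10660 and 11127 in PBS and 11774 and 12236 in week 0 libraries, the same order of groups as Vmn2r55. Much of this order is common in the values as deposited. Without overlap, 81.3% of protein-coding genes were lower in OSCA-40 than in PBS serum and 55.8% lower in OSCA-40 than in OSCA-32 serum. The shares were 47.3% for OSCA-32 below PBS and 8.46% for PBS below week 0 serum.

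Matches to this exon of at least 60 bases at 80% identity or more were found in 22 other rows, 11 in the sense and 11 in the opposite direction. Of the sense rows 5 averaged 100 or more (Gm17132, Gm42669, Gm43960, 9930111J21Rik2 and Traf5), of the opposite rows 1 (Nudt16), and of all protein-coding rows 1.47%. That last share leaves out pseudogenes such as Gm17132 and Gm43960, so it is not a like background for the sense rows. The exon was chosen after values were seen, so these counts are no test of shared reads. The medians of the mean values were 4.38 for the sense rows and 2.25 for the opposite rows. Among the matching rows were 6 other receptors, Vmn2r59, Vmn2r76 and Vmn2r79 in the sense and Vmn2r53, Vmn2r60 and Vmn2r114 in the opposite direction, and their means were 0.875 to 2.62. A match to the exon thus came with both high and low values. Whether reads of such repeats were assigned to Vmn2r55 was not tested, since the deposited table holds no positions. The neighbour Vmn2r56, which shares 907 bases with Vmn2r55 at 99.1% identity, had 1 and 1 in OSCA-40, 2 and 2 in OSCA-32, 4 and 4 in PBS and 3 and 4 in week 0 libraries.

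Shared sequence was then compared with level over the whole family. A stretch of at least 60 bases at 90% identity, in sense, with a row outside the family that averaged 100 or more was found for 59 members, whose median mean value was 1.5, and it was 1.5 for the other 63. Spearman's rho between a member's mean value and that of the highest row it shared sequence with was 0.13 across 122 genes, which are not independent replicates and share the same libraries. A near-identical copy, at least 200 bases at 99% identity with another row, was found for 35 members, whose median was 1.75, against 1.38 for the other 87. They include 8 of the 10 highest members, all but Vmn2r69 and Vmn2r71, and 27 of the other 112. Among them were Vmn2r42 with Vmn2r32, Vmn2r41 with Vmn2r40 and Vmn2r30 with Gm10302, so the split of the estimate within these pairs is uncertain. Within the family, the mean over the tumour-free libraries had a Spearman's rho of 0.00 with the length of the longest transcript, 0.13 with GC content and 0.11 with the number of annotated transcripts. Over all 21474 protein-coding rows the rho with the number of transcripts was 0.50.

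The 2 libraries of a group listed the same member with a difference of about 1 unit. Among members with a group mean of at least 0.5, the median absolute difference on the log2(value + 1) scale was 0.00 in OSCA-40 (101 genes), 0.58 in OSCA-32 (117), 0.41 in PBS (118) and 0.41 in week 0 serum (118). Over protein-coding genes with such a mean it was 0.41 in OSCA-40, 0.41 in OSCA-32, 0.32 in PBS and 0.32 in week 0 serum. In OSCA-40 serum 43 of 122 members were at 0 in 1 library and listed in the other, against 25 in OSCA-32, 4 in PBS and 8 in week 0 serum. For members with a group mean from 0.5 up to 1.5 in OSCA-40 serum this was 45.2% of 93, and 45.8% of the 7291 protein-coding genes of the same level, a difference of under 1 percentage point. At that level the share was 27.3% of 11 members in PBS serum, against 57.2% of protein-coding genes, and 28% of 25 members in week 0 serum, against 53.3%. The difference between these shares was not tested.

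The 5 members with the widest pair differences on the log2(value + 1) scale were Vmn2r39 with 4 and 0 in the PBS libraries, Vmn2r71 with 2 and 12 in the OSCA-32 libraries, Vmn2r31 with 0 and 3 in the week 0 libraries, Vmn2r-ps130 with 2 and 0 in the PBS libraries, and Vmn2r109 with 0 and 2 in the OSCA-32 libraries. Vmn2r71 (chr7:85563087-85624680, plus strand) had 0 and 3 in OSCA-40, 2 and 12 in OSCA-32, 3 and 7 in PBS and 3 and 11 in week 0 libraries. The library numbered 2 was the higher in all 4 groups, which was also so for Vmn2r5 and for 2.50% of the 20214 protein-coding genes with a mean of 1 or more. Vmn2r55 also differed by up to 10 units between the 2 libraries of a group, in PBS serum, where it had 164 and 154.

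**Figure D3:**
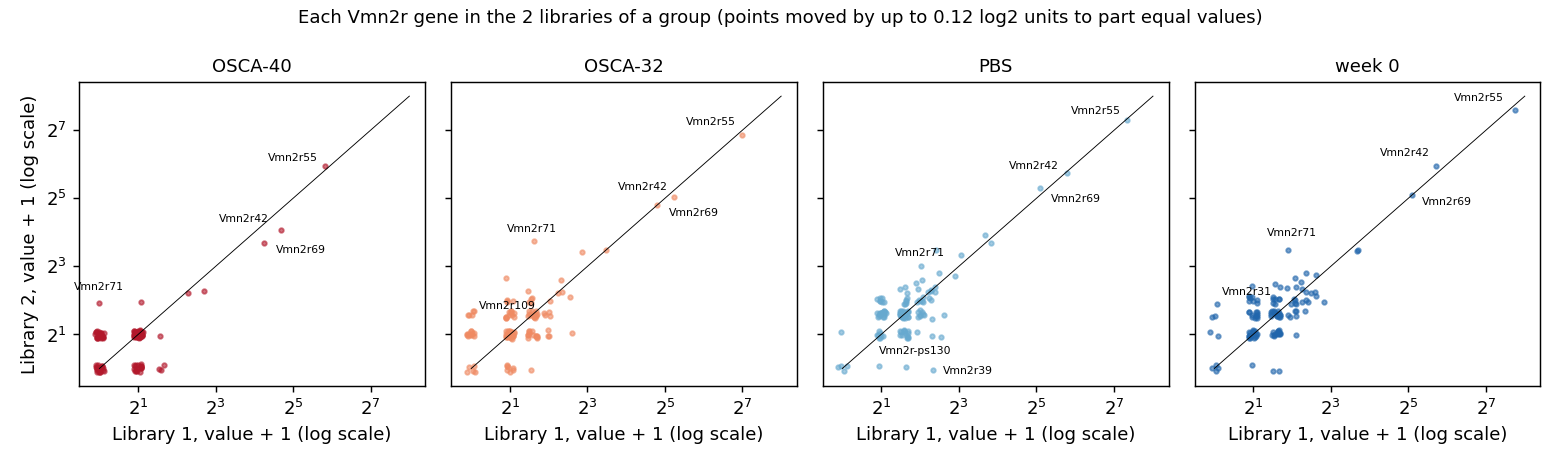
Value plus 1 of each of the 122 Vmn2r genes in library 1 (horizontal) and library 2 (vertical) of each group, both axes on a log2 scale, with the line of equality. Most points lie within a few units of 0, where a gene can be listed in 1 library and not in the other; Vmn2r55, Vmn2r42 and Vmn2r69 lie near the line in all 4 groups, and Vmn2r71 above it.

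As deposited, many members were lower in tumour serum, as were many other mouse genes. In the comparison of OSCA-40 with PBS serum both OSCA-40 libraries were below both PBS libraries for 75 of the 120 members ever listed and above them for 0, while 81.3% of protein-coding genes were lower in this way. For OSCA-32 against PBS serum 32 members were lower and 1 was higher, and the protein-coding shares were 47.3% lower and 1.6% higher. OSCA-40 against OSCA-32 serum gave 39 lower and 0 higher members, beside 55.8% of protein-coding genes lower. PBS against week 0 serum gave 10 higher and 4 lower members, beside protein-coding shares of 15.5% higher and 8.46% lower. The member shares were below those of the protein-coding genes in every one of these comparisons. Among the 8246 protein-coding genes with a mean from 0.5 up to 3, where 106 of the members lie, the shares lower were 69.8%, 33.7%, 36.5% and 5.49% in the same order of comparisons.

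After scaling of the libraries to each other the medians lay near 0. A trimmed mean of log ratios set the median difference of the members at -0.16 for OSCA-40 against PBS, 0.02 for OSCA-32 against PBS, -0.08 for OSCA-40 against OSCA-32 and 0.03 for PBS against week 0 serum, on the log2(scaled value + 1) scale over 120 members. The corresponding medians over 21173 protein-coding genes were -0.09, -0.02, -0.02 and 0.00. The lower and upper quartiles of the members lay at -0.50 and 0.25 for OSCA-40 against PBS serum and at -0.22 and 0.22 for PBS against week 0 serum. Both libraries of the first group lay above both of the second for 38 members and below for 22 in OSCA-40 against PBS serum, where the protein-coding shares were 24.9% higher and 21.6% lower. The members counted 14 higher and 25 lower in OSCA-32 against PBS serum, beside 17.4% and 20.3%, and 37 higher and 14 lower in OSCA-40 against OSCA-32 serum, beside 25.2% and 16.1%. In PBS against week 0 serum they counted 10 higher and 31 lower, beside 14.9% and 22.8%. The larger of each pair of counts thus changed sides with scaling in 3 of the 4 comparisons, all but OSCA-32 against PBS serum. Scale factors were 0.484 and 0.463 in OSCA-40, 1.476 and 1.495 in PBS and 1.419 and 1.444 in week 0 libraries. Scaling thus turns a single unit into a larger value in OSCA-40 libraries. It also makes equal values of at least 1 in PBS and week 0 libraries count as lower in PBS serum. The scaled counts therefore partly reflect the scale factors at these low values, and no change of the members is read from them. Folds on this scale understate the change of rows as low as these.

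**Figure D4:**
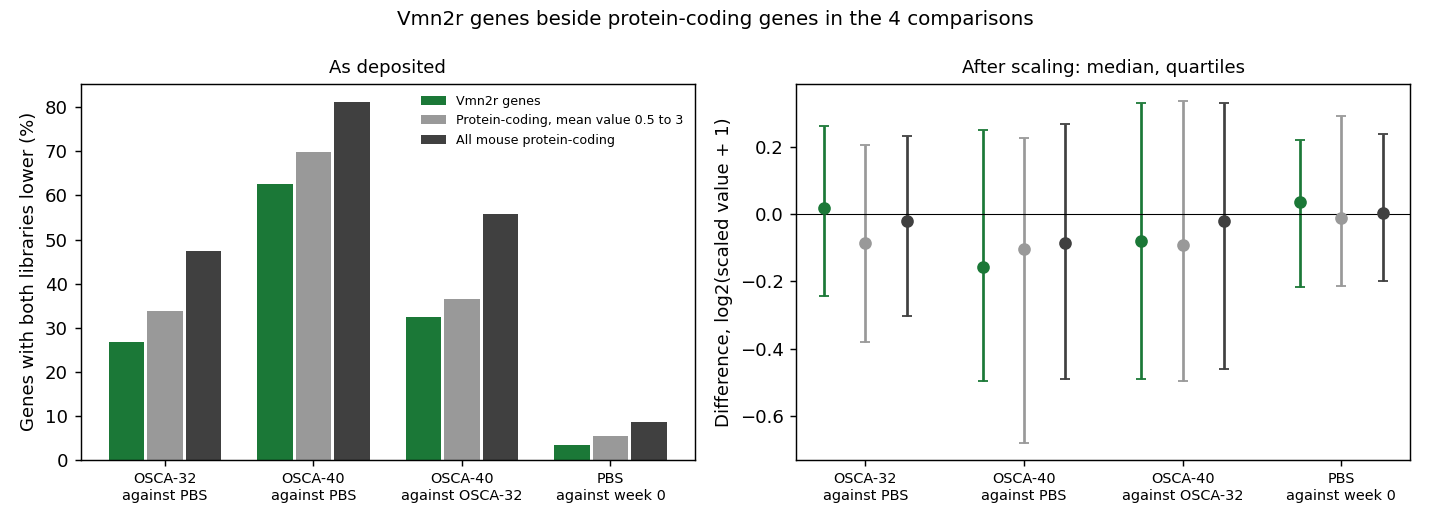
Left, percentage of genes with both libraries of the first-named group below both of the second as deposited; right, median difference after scaling, with the quartiles as bars, on the log2(scaled value + 1) scale. Green, Vmn2r genes; light grey, protein-coding genes with a mean value from 0.5 up to 3; dark grey, all mouse protein-coding genes. Vmn2r genes had the smallest percentage in each comparison, and every median lay within 0.16 of 0 after scaling.

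By limma on the scaled log2 values, with Benjamini-Hochberg adjustment over all 7872 tested mouse and canine genes, 0 of the 6 tested members were called in any of the 4 comparisons. For OSCA-40 against PBS serum, in which 6.75% of all tested genes were called, 0 of the 6 members had an unadjusted p under 0.05. For OSCA-32 against PBS serum, with 1.09% called, 1 member did. For OSCA-40 against OSCA-32 serum, with 2.76% called, 0 members did, and for PBS against week 0 serum, with 0.165% called, 1 did. In both cases the member was Vmn2r55. These 6 are the members with the highest means, and they say nothing of the other 116. Among them Vmn2r71 passed the filter only through library 2 of OSCA-32 serum, at 12, and library 2 of week 0 serum, at 11.

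Vmn2r55 had a log2 fold change of 0.25 ± 0.09 (SE) for OSCA-32 against PBS serum (limma, unadjusted p = 0.0240, adjusted p = 0.349) and of 0.17 ± 0.09 for OSCA-40 against PBS serum (adjusted p = 0.345). For PBS against week 0 serum it was -0.39 ± 0.09 (limma, unadjusted p = 0.00334, adjusted p = 0.448), and both PBS libraries were lower than both week 0 libraries. The lowest adjusted p of any member was 0.283, for Vmn2r69 in OSCA-40 against PBS serum, at 0.42 ± 0.20. Vmn2r71, whose pairs differ most among the tested members, had -1.20 ± 1.16 for OSCA-40 against OSCA-32 serum (adjusted p = 0.677), an error over 10 times that of Vmn2r55. The fold changes of Vmn2r42, Vmn2r41 and Vmn2r30 lay between -0.23 and 0.35 in the 4 comparisons.

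The calls depended on how the libraries were scaled and on the filter. With library totals alone limma called 5 of the 6 members lower in OSCA-40 than in PBS serum, 5 lower in OSCA-40 than in OSCA-32 serum and 1 lower in OSCA-32 than in PBS serum, together with 90.7%, 64.6% and 21.8% of the protein-coding genes. The direction of Vmn2r55, Vmn2r42, Vmn2r69, Vmn2r41 and Vmn2r30 in OSCA-40 against PBS serum turned with it, at -1.57 for Vmn2r55. Dropping the filter also changed the scale factors, which were computed anew over all rows listed. With no filter 120 members were tested, and 5 were called lower in OSCA-40 than in PBS serum, beside 3.3% of the protein-coding genes. They were Vmn2r-ps159, Vmn2r12, Vmn2r91, Vmn2r118 and Vmn2r35, each listed at 0 in both OSCA-40 libraries and at 1 to 4 in the PBS libraries. Likewise 3 were called lower in OSCA-40 than in OSCA-32 serum, beside 2.13% of the protein-coding genes, namely Vmn2r-ps159, Vmn2r118 and Vmn2r62, listed at 0 in both OSCA-40 libraries and at 1 to 3 in the OSCA-32 libraries. Without the library OSCA-40 replicate 2, Vmn2r69 was called higher in OSCA-40 than in PBS serum, at 0.72 ± 0.15 (limma, adjusted p = 0.0474).

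Most partners of these receptors in the vomeronasal organ were also listed at low values. Of 30 genes listed for the organ, 28 have a row in the table and 8 passed the filter. Trpc2, the channel of vomeronasal neurons, was at 0 in all 4 tumour libraries, with 1 and 3 in PBS and 3 and 3 in week 0 libraries. Omp, the olfactory marker protein of mature sensory neurons, was at 1 to 3 in the 8 libraries. The peptide ligand Esp1 had 1 and 0 in OSCA-40, 2 and 3 in OSCA-32, 4 and 4 in PBS and 4 and 6 in week 0 libraries, and the urinary protein Mup20 had 0 and 3, 6 and 6, 9 and 7, and 10 and 6. A separate list of 8 vomeronasal neuron markers summed to 71 and 83 in OSCA-40, 125 and 116 in OSCA-32, 177 and 153 in PBS and 174 and 170 in week 0 libraries. As a share of the mouse rows that was 0.0228% and 0.0287% in OSCA-40, 0.0230% and 0.0208% in OSCA-32, 0.0212% and 0.0185% in PBS and 0.0212% and 0.0210% in week 0 libraries. On that denominator both OSCA-40 libraries lay above the tumour-free ones. This order rested on Gnai2, which many cell types use. It made up 43 and 59 of the OSCA-40 sums, 89 and 72 of the PBS sums and 96 and 79 of the week 0 sums. The marker sum is therefore no measure of vomeronasal neurons alone. Gnao1, which neurons throughout the brain also use, had 5 and 9 in OSCA-40, 11 and 11 in OSCA-32, 23 and 24 in PBS and 18 and 23 in week 0 libraries.

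Of the 8 tested partners, 2 were called higher in OSCA-40 than in PBS serum and none lower, beside 4.41% of all tested genes called higher. Both are genes that many cell types use. B2m, which pairs with MHC class I heavy chains, had 16 and 15 in OSCA-40, 15 and 10 in OSCA-32, 10 and 11 in PBS and 9 and 8 in week 0 libraries. Its log2 fold change was 2.06 ± 0.24 for OSCA-40 against PBS serum (limma, adjusted p = 0.00276) and 1.33 ± 0.24 for OSCA-40 against OSCA-32 serum (adjusted p = 0.0359), where 1.77% of all tested genes were called higher. Gnai2, an inhibitory G protein subunit, had 0.97 ± 0.20 for OSCA-40 against PBS serum (limma, adjusted p = 0.0329), with 43 and 59 in OSCA-40 and 89 and 72 in PBS libraries, so that it was higher only relative to the mouse rows. None of the 8 was called in OSCA-32 against PBS or in PBS against week 0 serum. The 7 H2-M10 and H2-M11 genes, MHC molecules of vomeronasal neurons, were all at 7 or less. H2-M1 and H2-M9, from the same list, reached at most 8 and 7.

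The tested protein-coding genes whose log2 values over the 8 libraries followed the mean of the 6 tested members most closely were Psmb3, Tm2d1, Msantd3, Ankfy1 and Trmt44, with Pearson's r of 0.97, 0.94, 0.94, 0.93 and 0.93, as a description over 8 libraries that share 1 scaling. The mean they were matched to was itself higher in library 2 of all 4 groups, and Vmn2r71 differed most between libraries among the 6, so genes chosen to follow it carry that pattern by choice and 1 member may carry the mean. Psmb3 had 2 and 4 in OSCA-40, 6 and 10 in OSCA-32, 7 and 9 in PBS and 8 and 11 in week 0 libraries.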

How the data were processed

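Vesicle RNA of pooled mouse serum was sequenced in 8 libraries, 2 per group, with a strand-keeping kit, per the labels' protocols. Tools listed in the submitters' processing notes are kallisto 0.43.0, Trimmomatic 0.33.0 and FastQC 0.11.5, and the builds listed are CanFam3.1 and GRCm38.p5. The score values deposited by the authors are whole numbers per gene with nearly equal column sums. How they were made whole is not given in the sources used here, so no count test was run and depth is unknown.

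GENCODE M21 (GRCm38) gave symbols and positions for 31171 of 31300 mouse rows. The 7872 genes with 10 or more in 2 or more libraries were used, libraries were put on 1 scale with trimmed log-ratio means (30% of ratios and 5% of levels left out at each end), and log2(scaled value + 1) was fitted with limma 3.58.1 in R 4.3.3, with 1 mean per group over all 8 libraries, a variance trend and Benjamini-Hochberg adjustment within each comparison at 0.05. The fit was tried on simulated data drawn from genes that pass the filter, with changes in OSCA-40 only. That simulation does not cover the low values of most members. Sequences were compared with BLAST 2.17.0. The receptor family was picked for study, and the gene lists were chosen, with earlier results of these data known; the members follow from the symbol. Genes named are members called in any comparison, the 10 highest by mean, the tested members with the most extreme fold changes, the 5 widest pair differences, the vomeronasal list and the 5 genes most alike; other names, and the exon of Vmn2r55, were chosen after their values were seen. Other scalings, filters, pseudocounts and sets of libraries were tried.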

Additional observations from a re-analysis of the deposited data

How the results depend on the processing

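The number of Vmn2r genes called stayed at 0 in all 4 comparisons under median-of-ratios scaling, a minimum of 5, a mean of at least 50 (which left only Vmn2r55), pseudocounts of 0.25 and 4, no variance trend, only the groups compared, mouse genes alone and the replicate block. With library totals alone it was 1 for OSCA-32 against PBS, 5 for OSCA-40 against PBS and 5 for OSCA-40 against OSCA-32 serum. With no filter it was 5 for OSCA-40 against PBS and 3 for OSCA-40 against OSCA-32 serum. With 1 library left out it lay between 0 and 1 for OSCA-40 against PBS serum and at 0 in the other comparisons; the lone library of that group is then assumed to vary like the other groups. Same-numbered libraries did not deviate together (r between -0.06 and 0.01 across 7872 genes), so the numbers are taken as names, and the replicate block changed none of the calls (0 in each comparison).

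Over the mouse rows, the family's share averaged 0.0595% in OSCA-40, 0.0692% in OSCA-32, 0.0637% in PBS and 0.0681% in week 0 serum, and without Vmn2r55 its share of the library was 0.0123%, 0.0259%, 0.0379% and 0.0362% in those groups. Members at 5 or more averaged 3.5, 7.5, 11 and, rounded up, 11 in the same order, and at 10 or more 3, 5, 5.5 and 5.5. The median level divided by the scale factor was 2.11, 1.01, 1.35 and 1.40, and over members listed at 1 or more it became 2 in OSCA-32 serum.

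Of 24 fold changes of the tested members, each uncalled, 387 of 428 alternative values kept the direction. With library totals alone the direction turned for OSCA-40 against PBS serum in Vmn2r55 (-1.57), Vmn2r42 (-1.48), Vmn2r69 (-1.26), Vmn2r41 (-1.33) and Vmn2r30 (-1.51), for OSCA-40 against OSCA-32 serum in Vmn2r42 (-0.88), Vmn2r69 (-0.87) and Vmn2r30 (-0.85), for OSCA-32 against PBS serum in Vmn2r55 (-0.38), Vmn2r42 (-0.60), Vmn2r69 (-0.39) and Vmn2r41 (-0.22), and for PBS against week 0 serum in Vmn2r69 (0.052) and Vmn2r41 (0.011). With library totals alone the median over tested protein-coding genes was -1.61 for OSCA-40 against PBS, -1.0 for OSCA-40 against OSCA-32 and -0.60 for OSCA-32 against PBS serum. With no filter the direction turned for OSCA-40 against PBS serum in Vmn2r55 (-0.071), Vmn2r42 (-0.015), Vmn2r41 (-0.0099) and Vmn2r30 (-0.20). For OSCA-40 against OSCA-32 serum it turned in Vmn2r42 (-0.034), Vmn2r69 (-0.0355) and Vmn2r30 (-0.12). This setting also computed the scale factors anew, over all rows listed. The median over protein-coding genes was then -0.26 for OSCA-40 against PBS and -0.22 for OSCA-40 against OSCA-32 serum. In the main fit these medians were -0.037 and -0.016. A minimum of 5 turned Vmn2r30 in OSCA-40 against PBS serum (-0.016). Leaving out 1 library at a time gave ranges across 0. They were -0.40 to 0.22 for Vmn2r30 and -0.12 to 0.16 for Vmn2r42 in OSCA-32 against PBS serum. In OSCA-40 against PBS serum they were -0.16 to 0.17 for Vmn2r30, -0.0021 to 0.45 for Vmn2r42 and -2.17 to 0.87 for Vmn2r71. In OSCA-40 against OSCA-32 serum they were -0.21 to 0.41 for Vmn2r30, -0.024 to 0.43 for Vmn2r42, -0.093 to 0.49 for Vmn2r69 and -2.78 to 0.26 for Vmn2r71. In PBS against week 0 serum they were -0.047 to 0.28 for Vmn2r30, -0.16 to 0.074 for Vmn2r41, -0.034 to 0.023 for Vmn2r69 and -1.04 to 0.13 for Vmn2r71. The cause was not tested. With 2 libraries per group and values of 1 or 2, rounding to whole numbers sets the smallest change that can be seen, and the depth behind a unit is unknown.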
